A study of Mus musculus with 2 samples.

Results

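Fibroblast growth factor (FGF) signalling was followed through 10 genes in single cells of mouse trabecular bone. The genes were the receptors Fgfr1, Fgfr2, Fgfr3 and Fgfrl1, the ligands Fgf2, Fgf7, Fgf18 and Fgf23, and the feedback inhibitors Spry1 and Spry2. They were chosen by symbol, as the receptors, ligands and inhibitors best known in the skeleton, and all 10 were found among the 27998 genes of the count matrices, of which 18683 had at least 1 count in the cells kept. The study injected Gli1-CreERT2; Ai9 mice of 1 month of age with teriparatide or vehicle to find the cells through which the drug builds bone. Teriparatide is the active fragment of parathyroid hormone and acts on the receptor Pth1r. Both groups had the same genotype, on a mostly C57BL6 background mixed with 129, and both received tamoxifen on 3 consecutive days followed by 3 daily injections, of 400 ng per g teriparatide in one group and of vehicle in the other. Tamoxifen lets CreERT2, which is driven by the Hedgehog target gene Gli1, switch on the tdTomato reporter of Ai9. The label was therefore meant for cells that had expressed Gli1 during dosing, and their descendants. Hematopoietic-like cells were found among the cells measured as well. The femoral metaphysis was cut to about 5 mm from the growth plate and digested after the epiphysis was removed, and tdTomato+CD31-CD45-Ter119- cells were sorted and captured by droplet-based sequencing of transcript 3′ ends. Each group had 5 mice, 3 males and 2 females, and 1 library. Whether all 5 mice went into the library is not stated in the sources used here.

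FGFs bind receptor tyrosine kinases together with heparan sulfate, and the activated receptor signals through the docking protein Frs2 to Ras and the ERK kinases. Fgfr3 is known as the receptor of growth plate chondrocytes, where it restrains proliferation, whereas Fgfr1 and Fgfr2 serve the osteoblast lineage. Fgfrl1 binds FGFs and heparin but lacks the intracellular kinase domain. Among the ligands, Fgf2 is stored in bone matrix, Fgf7 is a mesenchymal factor that acts on an isoform of Fgfr2, Fgf18 regulates chondrocytes through Fgfr3, and Fgf23 is the phosphate hormone that osteocytes release. Sprouty proteins such as Spry1 and Spry2 dampen the ERK pathway and are induced by it.

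Levels are unique molecular identifiers (UMIs, 1 for each captured mRNA molecule) of a gene per 1000000 UMIs of all genes (CPM), taken over the pooled counts of a class and library. Where a pair of values is given, the vehicle library comes first. Intervals in parentheses are exact 95% intervals and cover counting error alone. With a single library per condition the difference between mice could not be measured, and no test between conditions was possible. Levels were compared mainly between cells for the same gene, since capture at the 3′ end can differ between genes. Shares among the UMIs of several genes, and rankings of genes by UMIs, are subject to this limit. Splice forms of the receptors could not be told apart. The vehicle library held 1286 barcodes with 10567335 UMIs and the teriparatide library 2142 barcodes with 26270041 UMIs. After the limits on genes and mitochondrial UMIs, 549 and 1217 cells were kept, of which 424 and 605 were mesenchymal, with a median of 12236 and 21321 UMIs. The libraries differed in more than the drug. Of mesenchymal cells with a sex call, 52.6% were male with vehicle and 90.0% with teriparatide, and hematopoietic-like cells made up 22.6% and 50.04% of the cells kept. The libraries shared 2 cell barcodes, of which 1 was kept.

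Clusters were named from marker genes. The classes were COP-like cells (chondrocyte-like osteoprogenitors, 66 vehicle and 263 teriparatide cells), preOB-like cells (preosteoblasts, 61 and 54), OB-like cells (osteoblasts, 96 and 93), osteocyte-like cells (17 and 37), MALP-like cells (marrow adipogenic lineage precursors, 125 and 80) and hypertrophic-like chondrocytes (7 and 22). A further 52 and 56 cells counted as mesenchymal could not be named. Their median depth was 3096 and 1239.5 UMIs, and the neutrophil markers S100a9 and S100a8 were among their leading genes. Their neutrophil markers summed to 39.4 and 9267 CPM, their osteoblast markers to 91714 and 123260 CPM and their MALP markers to 24266 and 6780 CPM. They remain part of the other mesenchymal cells in the comparisons below. The defining markers were present in each class, with Sox9, Col2a1 and Acan in COP-like, Postn, Aspn and Tnn in preOB-like, Col1a1 and Bglap2 in OB-like, Dmp1 and Mepe in osteocyte-like and Adipoq and Lepr in MALP-like cells. Of the 5 osteoblast markers, Ibsp and Sp7 were not highest in OB-like cells. Ibsp was at 2280 and 5566 CPM there, 4597 and 6398 CPM in osteocyte-like and 12104 and 12645 CPM in hypertrophic-like cells. Sp7 was at 235 and 232 CPM in OB-like and 236 and 248 CPM in osteocyte-like cells. The osteocyte marker Sost was at 0 in the vehicle osteocyte-like cells and at 234 CPM in the teriparatide ones. Cells with a UMI of the hematopoietic marker Ptprc were left out of the mesenchymal classes, so its level of 0 there was fixed beforehand. Rgs5 and Acta2, markers of pericytes and smooth muscle, were among the 10 leading genes of the preOB-like class, and 17 of its cells in each library held a UMI of such a marker.

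On GRCm38, with GENCODE vM21 genes, the receptors lie at chromosome 8 from 25513654 to 25575718 (Fgfr1, plus strand), chromosome 7 from 130162451 to 133123350 (Fgfr2, minus strand), chromosome 5 from 33721674 to 33737068 (Fgfr3, plus strand) and chromosome 5 from 108692382 to 108706924 (Fgfrl1, plus strand). The annotated span of Fgfr2 overlaps 69 other genes. Fgf2 (chromosome 3 from 37348346 to 37410108) overlaps Nudt6 and Fgf2os on the opposite strand, and Fgf7 (chromosome 2 from 126034658 to 126091185) overlaps Fam227b there. Fgf18 lies on chromosome 11 from 33117430 to 33147400, Fgf23 on chromosome 6 from 127072902 to 127081408, Spry1 on chromosome 3 from 37639947 to 37644598 and Spry2 on chromosome 14 from 105891947 to 105896819. The sources used here do not say whether counting used the strand, so reads where genes overlap are uncertain.

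Promoter windows from 250 bases before to 50 bases after the start are shown for a pair of members that were highest in COP-like cells, Fgfr3 and Fgfrl1, and a pair that were highest in MALP-like cells, Fgf7 and Spry1. They are RefSeq sequences of GRCm38.p6, read 5′ to 3′ on the plus strand, at chr5:33721474-33721773, chr5:108693979-108694278, chr2:126034408-126034707 and chr3:37639697-37639996. Capitals mark the GC box GGGCGG or its reverse complement CCGCCC.
Fgfr3: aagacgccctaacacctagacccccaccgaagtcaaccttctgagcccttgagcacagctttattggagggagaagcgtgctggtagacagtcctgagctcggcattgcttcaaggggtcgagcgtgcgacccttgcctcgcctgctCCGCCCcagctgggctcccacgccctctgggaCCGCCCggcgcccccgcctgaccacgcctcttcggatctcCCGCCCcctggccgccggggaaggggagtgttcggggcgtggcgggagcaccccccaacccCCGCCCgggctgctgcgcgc
Fgfrl1: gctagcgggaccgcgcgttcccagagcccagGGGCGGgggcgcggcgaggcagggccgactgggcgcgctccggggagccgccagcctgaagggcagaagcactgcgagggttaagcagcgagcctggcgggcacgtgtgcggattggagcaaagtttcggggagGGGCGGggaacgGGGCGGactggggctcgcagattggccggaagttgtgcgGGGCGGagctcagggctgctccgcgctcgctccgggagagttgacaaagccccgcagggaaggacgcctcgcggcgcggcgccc
Fgf7: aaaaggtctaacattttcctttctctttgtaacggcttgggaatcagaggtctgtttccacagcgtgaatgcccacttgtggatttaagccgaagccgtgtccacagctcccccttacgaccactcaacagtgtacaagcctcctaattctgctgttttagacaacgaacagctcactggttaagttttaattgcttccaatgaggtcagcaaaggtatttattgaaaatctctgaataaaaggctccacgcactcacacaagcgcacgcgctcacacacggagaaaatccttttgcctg
Spry1: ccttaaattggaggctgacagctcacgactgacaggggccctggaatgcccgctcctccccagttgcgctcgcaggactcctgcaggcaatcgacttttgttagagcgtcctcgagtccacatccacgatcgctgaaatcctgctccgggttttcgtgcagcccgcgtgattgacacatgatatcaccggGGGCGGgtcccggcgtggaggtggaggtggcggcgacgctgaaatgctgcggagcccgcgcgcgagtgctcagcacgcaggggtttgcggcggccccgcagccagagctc
The GC box occurred 4 times in the Fgfr3 window, 4 times in the Fgfrl1 window, once in the Spry1 window and not in the Fgf7 window. Of 32841 windows of the same length, 35.7% held it on either strand. The core of the cAMP response element, TGACG, held by 20.8% of windows, was not found in these 4 windows, but occurred 2 times in the window of Fgf2 and once in that of Fgf23. The SOX core ACAAT, in 31.0% of windows, occurred once in the windows of Fgfr2 and Fgf23, and the RUNX core TGTGGT, in 16.8%, in none of the 10 windows found for 9 of the members. The matches overlap no other motif searched, except that the neighbouring GC boxes of a further Fgfr3 window share a base. These letter matches are descriptions of the windows, since 3′ counts do not show which start was used.

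Each of the 3 kinase receptors had a different leading class among those with at least 10 cells per library. Fgfr1 was highest in preOB-like and OB-like cells, Fgfr2 in MALP-like and preOB-like cells and Fgfr3 in COP-like cells. Fgfrl1 was highest in COP-like cells and Fgf7 and Spry1 in MALP-like cells. Fgf18 and Fgf23 were close to absent. In all kept cells, the members ranged from 3532 UMIs of Fgfr1 down to 30 of Fgf18 and 1 of Fgf23, so that the precision differs greatly between them.

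**Figure D1:**
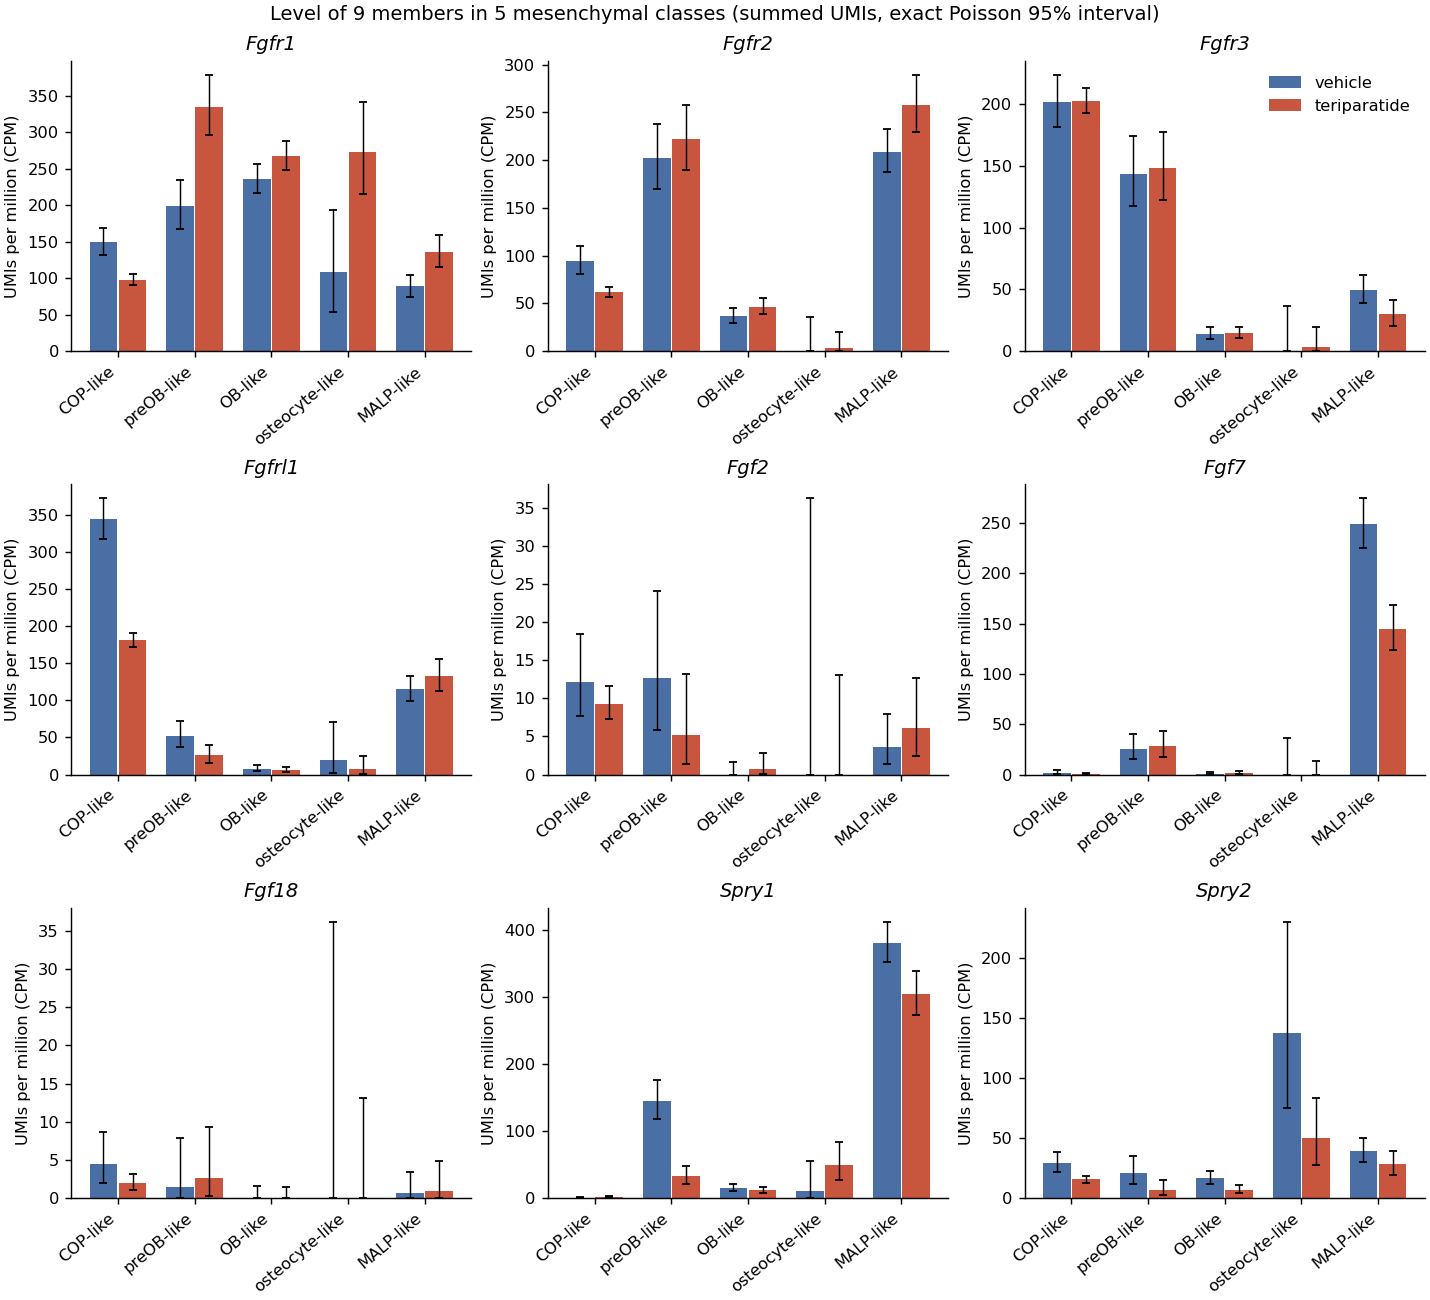
Level of 9 members (CPM, linear axis from 0, a different scale in each panel; Fgf23, with 1 UMI, is not drawn) in 5 mesenchymal classes, with bars for the vehicle and teriparatide libraries and whiskers for the exact 95% Poisson interval of the summed UMIs. Fgfr3 and Fgfrl1 are tallest in COP-like cells (202 and 345 CPM in the vehicle library), and Fgf7 and Spry1 in MALP-like cells (249 and 382 CPM).

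Fgfr1, a receptor that acts from early osteoblast lineage cells to osteocytes, was broadly expressed. In OB-like cells it had 236 CPM (216–257) with vehicle and 267 CPM (248–288) with teriparatide. The preOB-like cells had 199 CPM (167–235) and 335 CPM (296–378). These neighbouring classes overlapped in the vehicle library, and the preOB-like level lay above the OB-like one in the teriparatide library. COP-like cells had 149 CPM (132–168) and 97.9 CPM (91.2–105), and MALP-like cells 88.6 CPM (74.8–104) and 136 CPM (116–159.6). The COP-like level lay above the MALP-like one in the vehicle library and below it in the teriparatide library. The osteocyte-like values of 108 and 273 CPM rested on 11 and 77 UMIs. The few hypertrophic-like cells had the highest level of any class, 514 CPM (379–682) and 537 CPM (482–596).

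At the level of single cells, Fgfr1 was seen in 93 of 96 cells (96.9%) and 90 of 93 cells (96.8%) of the OB-like class. In erythroid-like cells, which should lack it, the shares were 3.85% and 1.198%, at a median depth of 9360 and 10461 UMIs against 17602 and 25465 in OB-like cells. With each cell thinned to 3000 UMIs, the share in preOB-like cells was 48.3% with vehicle and 67.3% with teriparatide (unthinned, 72.1% and 87.0%), against 27.7% and 21.6% in COP-like cells (unthinned, 78.8% and 74.9%). At this equal depth the preOB-like and COP-like intervals overlapped in the vehicle library (35.0 to 61.8 and 17.3 to 40.2) and did not in the teriparatide library (52.9 to 79.7 and 16.8 to 27.1). The thinned share of erythroid-like cells was 0 of 34 and 1 of 138 cells, with exact upper limits of 10.3% and 3.97%.

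Fgfr2, whose activating mutations fuse the cranial sutures, was highest in MALP-like cells, with 209 CPM (187–232) with vehicle and 258 CPM (229–289) with teriparatide. The preOB-like cells followed with 202 CPM (170.1–238) and 222 CPM (189.7–257), intervals that overlapped those of the MALP-like cells in both libraries. COP-like cells held 94.4 and 61.8 CPM, and OB-like cells 36.5 and 46.6 CPM. Osteocyte-like cells had 0 and 1 UMIs. Fgfr2 was thus lower in OB-like than in preOB-like cells. In osteocyte-like cells, where Fgfr1 was still counted, the upper limits of Fgfr2 were 36.2 and 19.8 CPM. The vehicle limit was about the OB-like level of 36.5 CPM, so only the teriparatide library showed a level below that of OB-like cells.

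Fgfr3, the receptor mutated in achondroplasia, was highest in COP-like cells and had the same level there in both libraries, 202 CPM (182–224) with vehicle and 203 CPM (193–213) with teriparatide. The next class was preOB-like, at 144 and 148 CPM, followed by MALP-like at 49.5 and 29.7 CPM and OB-like at 14.1 and 14.5 CPM. On the log2 scale COP-like cells exceeded all other mesenchymal cells by 2.08 (1.84 to 2.32) with vehicle and 2.11 (1.92 to 2.31) with teriparatide. In hypertrophic-like cells, the stage after the Fgfr3-rich one in the growth plate, the values were 193 CPM (114–305) and 109.8 CPM (85.9–138). No interval of the OB-like cells reached those of the preOB-like cells in either library.

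Fgfrl1, the receptor without a kinase, was also a COP-like gene, with 345 CPM (318–373) with vehicle and 181 CPM (172–190.4) with teriparatide. MALP-like cells had 115 CPM (99.0–133) and 133 CPM (113–156), preOB-like cells 52.2 and 25.8 CPM, and OB-like cells 7.92 and 6.49 CPM, about the 11.3 and 5.59 CPM of erythroid-like cells. Unlike Fgfr3, its level in COP-like cells differed between the libraries by more than the counting error. The COP-like excess over the other mesenchymal cells was 2.71 (2.50 to 2.92) with vehicle and 2.23 (2.02 to 2.44) with teriparatide on the log2 scale.

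The makeup of the kinase receptors, as the share of each among the UMIs of Fgfr1, Fgfr2 and Fgfr3 together, differed between classes. These are shares of counted UMIs and need not equal shares of transcripts. In COP-like cells Fgfr3 made up 45.4% (41.9 to 48.9) with vehicle and 55.9% (54.1 to 57.8) with teriparatide. In OB-like cells Fgfr1 made up 82.3% (79.2 to 85.2) and 81.4% (78.6 to 83.9). In osteocyte-like cells it made up 100% (71.5 to 100) of 11 UMIs and 97.5% (91.2 to 99.7) of 79 UMIs. In MALP-like cells Fgfr2 made up 60.2% (56.1 to 64.3) and 60.8% (56.3 to 65.2). In preOB-like cells the shares were 36.5% and 47.5% of Fgfr1, 37.0% and 31.4% of Fgfr2 and 26.4% and 21.0% of Fgfr3.

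The COP-like class joined 3 clusters, named Cpm-led (25 vehicle and 102 teriparatide cells), Chad-led (23 and 97) and Ppa1-led (18 and 64). The genes in these names were chosen after the clusters were seen. Ppa1 was the top gene of its cluster, whereas Ucma ranked above Cpm and Chad in theirs. The receptors divided between these clusters. Fgfr3 was highest in the Ppa1-led cluster, 331 CPM (287–381) and 267 CPM (247–288), and lowest in the Chad-led cluster, 84.3 CPM (63.0–111) and 139.5 CPM (126–154). Fgfr1 had the opposite order, with 282 CPM (242–327) and 152 CPM (138–167) in the Chad-led and 55.2 and 58.7 CPM in the Ppa1-led cluster. Both orders held in each library, with intervals that did not overlap between these clusters. Fgfrl1 was highest in the Cpm-led cluster, at 467 and 244 CPM. Fgf2 was at 25.1 and 10.4 CPM in this cluster, and in the teriparatide library its intervals overlapped between all 3 clusters. Fgfr2 was lower in the Ppa1-led (61.9 and 33.0 CPM) than in the Cpm-led cluster (126 and 76.1 CPM). As a share of the kinase receptors, Fgfr3 therefore ran from 18.2% and 38.2% in the Chad-led to 73.9% and 74.4% in the Ppa1-led cluster. The members were kept out of the genes used for clustering.

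**Figure D2:**
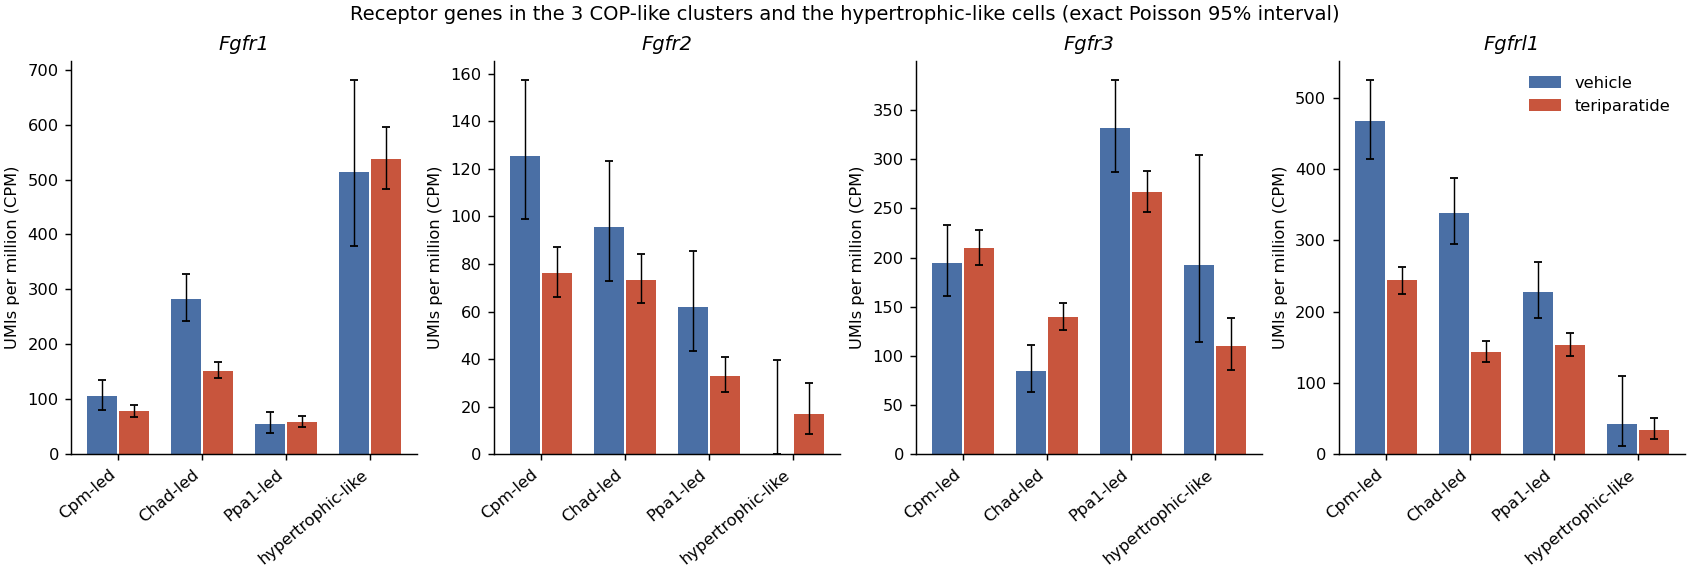
Levels of Fgfr1, Fgfr2, Fgfr3 and Fgfrl1 (CPM) in the 3 COP-like clusters and the hypertrophic-like cells, with a bar for each library and whiskers for the exact 95% Poisson interval. Fgfr3 peaks in the Ppa1-led cluster (331 and 267 CPM) where Fgfr1 is lowest (55.2 and 58.7 CPM), and Fgfr1 peaks in the hypertrophic-like cells (514 and 537 CPM).

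Of the member ligands, Fgf7 had the most UMIs, and it marked MALP-like cells. These had 249 CPM (226–275) with vehicle and 145 CPM (124–169) with teriparatide. The preOB-like cells followed with 25.4 and 28.3 CPM, and the COP-like and OB-like classes did not exceed 1.15 CPM. Osteocyte-like and hypertrophic-like cells had 0 UMIs, with upper limits of 36.2 and 13.1 CPM in the former and 39.5 and 5.62 CPM in the latter. Relative to all other mesenchymal cells, MALP-like cells were higher by 5.75 (5.15 to 6.40) and 5.77 (5.22 to 6.35) on the log2 scale. MALP-like cells, which had the most Fgf7, also had the highest level of Fgfr2, where their intervals overlapped those of preOB-like cells. The isoform of Fgfr2 was not resolved, so the counts do not show whether these cells made the form that Fgf7 acts on.

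Fgf2 had 124 UMIs in all, most of them in COP-like cells, where 22 and 73 UMIs gave 12.1 CPM (7.61–18.4) and 9.22 CPM (7.23–11.6). Its preOB-like level of 12.7 and 5.15 CPM did not differ from the COP-like one beyond the counting error. Fgf18 was counted in COP-like cells with 8 and 15 UMIs, or 4.42 CPM (1.91–8.70) and 1.90 CPM (1.06–3.13). For Fgf23 a single UMI was counted, in an OB-like teriparatide cell. Osteocyte-like cells, the known source of the hormone, held 0 UMIs in 17 and 37 cells, where 3 UMIs would have been 29.5 and 10.6 CPM. At this depth lower levels of Fgf23 were not detectable.

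The feedback inhibitor Spry1 was highest in MALP-like cells, with 382 CPM (353–413) with vehicle and 305 CPM (274–339) with teriparatide. In preOB-like cells it had 145 CPM (119–176) and 32.2 CPM (20.8–47.6), and in OB-like cells 15.0 and 11.1 CPM. COP-like cells held 0 and 12 UMIs, at or under 1.52 CPM, despite having the deepest cells of the data set. Spry1 was thus nearly missing from the class with the most Fgfr3, and seen in 90.4% and 96.2% of the MALP-like cells, against 1.92% and 0.599% of the erythroid-like cells (median depth 12721 and 14117 against 9360 and 10461 UMIs). Spry2 had another order. It was highest in osteocyte-like cells, 138 CPM (75.2–231) and 49.7 CPM (27.2–83.4), from 14 and 14 UMIs. MALP-like cells had 39.1 and 28.0 CPM and COP-like cells 29.3 and 15.4 CPM of Spry2, so that it was counted where Spry1 was nearly missing.

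The comparison of the libraries asked which members differed after 3 days of teriparatide. A gene was counted when it had at least 50 UMIs over both libraries of a class and differed by 1.5-fold or more, the fold limit of the study. In COP-like cells 6 members had enough UMIs. None was higher and 4 were lower in the teriparatide library (Fgfr1, Fgfr2, Fgfrl1 and Spry2), where 8.17% of 9208 genes were higher and 16.9% lower by the same rule. In preOB-like cells, 1 of 5 members was higher (Fgfr1; background 8.43% of 4482 genes) and 2 were lower (Fgfrl1 and Spry1; background 18.4%). In OB-like cells none of 5 was higher (background 6.6% of 6330 genes) and Spry2 was lower (background 13.9%). In osteocyte-like cells the single member with enough UMIs, Fgfr1, was higher (background 19.4% of 872 genes), and none was lower (background 13.2%). In MALP-like cells 1 of 7 was higher (Fgfr1; background 8.24% of 6871 genes) and 2 were lower (Fgfr3 and Fgf7; background 10.1%). The median log2 ratio of the members was -0.61 in COP-like, 0.042 in preOB-like, 0.044 in OB-like and -0.32 in MALP-like cells, against -0.20, -0.14, -0.15 and -0.080 over all genes counted there. With so few members, 1 gene moves such a share by a large step. Most classes had more lower than higher genes, 752 higher and 1554 lower in COP-like, 378 and 825 in preOB-like, 418 and 881 in OB-like and 566 and 695 in MALP-like cells. When each class was scaled by the median ratio of its genes in place of the total, these counts became 1197 and 670, 559 and 541, 645 and 485, and 729 and 531. Under that scaling Fgfr1 (-0.40) and Fgfr2 (-0.41) in COP-like cells were no longer past 1.5-fold, while Fgfrl1 (-0.73) and Spry2 (-0.72) were, and the calls of the members in the other classes stayed as given.

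**Figure D3:**
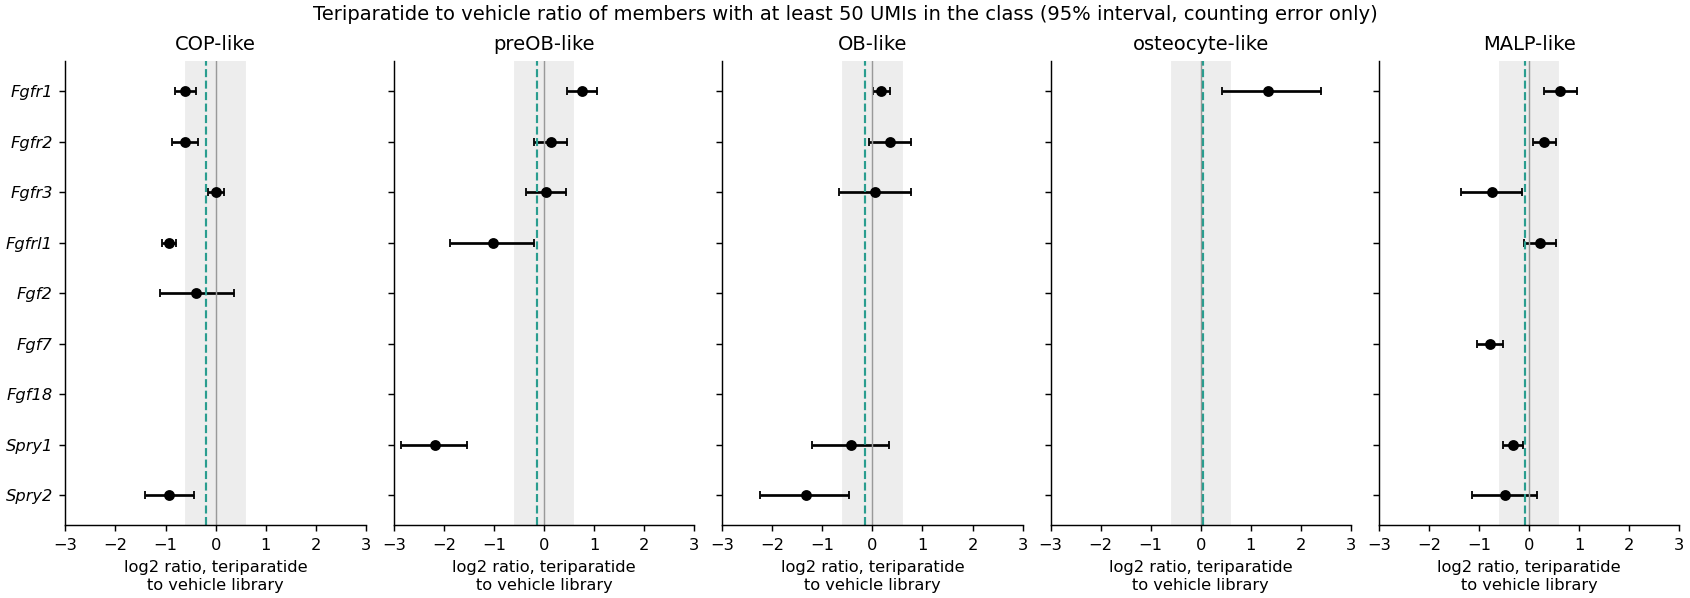
Log2 ratio of the teriparatide to the vehicle library for each member with at least 50 UMIs in a class, with points for the ratio, whiskers for the exact 95% interval of counting error, a grey band for ratios within 1.5-fold, a grey line at no difference and a dashed line at the median of all genes counted. Fgfr1 lies below 0 in COP-like cells (-0.61) and above 0 in preOB-like (0.75), osteocyte-like (1.34) and MALP-like cells (0.62), while Fgfrl1 lies at -0.93 in COP-like cells.

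Fgfr1 had opposite directions in different classes. In COP-like cells the log2 ratio of teriparatide to vehicle was -0.61 (-0.81 to -0.40). Among the COP-like clusters the ratio was -0.89 (-1.15 to -0.63) in the Chad-led and -0.44 (-0.85 to -0.0074) in the Cpm-led cluster. The Ppa1-led cluster did not share the lower level, with a ratio of 0.088 (-0.47 to 0.68). In MALP-like cells it was 0.62 (0.29 to 0.96), in preOB-like cells 0.75 (0.45 to 1.06) and in osteocyte-like cells 1.34 (0.42 to 2.40). The OB-like ratio of 0.18 (0.017 to 0.35) stayed within 1.5-fold, and it was -0.16 within male and 0.60 within female cells. Since the sexes were unequally represented, the ratios were also taken within male and within female cells. Male COP-like cells gave -0.53 (-0.76 to -0.29) and female ones -0.48 (-0.97 to 0.028). Male MALP-like cells gave 0.65 (0.22 to 1.09) and female ones 0.46 (-0.66 to 1.42). The directions were those of all cells, but both female intervals included 0. Osteocyte-like cells gave 0.68 (-0.49 to 2.08) in male cells, from 7 and 42 UMIs, and 2.18 (0.14 to 5.31) in female cells, from 2 and 21 UMIs, and the male interval included 0. In preOB-like cells the ratio was 0.91 (0.47 to 1.37) in male but -0.56 (-1.44 to 0.25) in female cells, of which the teriparatide library had 6. When each cell was assigned by its own markers, which left 8 and 11 preOB-like cells, the preOB-like ratio turned to -0.31, and it was 0.21 when the mitochondrial limit was raised to 20%.

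The higher preOB-like Fgfr1 stood beside a different composition of that class. The summed osteoblast markers were at 13651 CPM with vehicle and 29844 CPM with teriparatide in preOB-like cells, and the summed MALP markers at 5546 and 2393 CPM, including Adipoq at 690.0 and 88.9 CPM. The 4 cycling markers summed to 12.7 and 108 CPM. The pericyte and smooth muscle markers summed to 1276 and 1517 CPM, with Rgs5 at 533 and 1368 CPM and Acta2 at 656 and 104 CPM. Without the cells holding such a marker, Fgfr1 was at 236 CPM with vehicle and 388 CPM with teriparatide. The part of the other markers in the ratio was not tested. Fgfrl1, the other receptor past 1.5-fold in this class, had a ratio of -1.02 (-1.88 to -0.20) from 37 and 20 UMIs. It was 0.076 with up to 20% mitochondrial UMIs and 0.60 with cells assigned by their own markers, so that its direction turned under both.

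In COP-like cells Fgfrl1 was lower in the teriparatide library, with a log2 ratio of -0.93 (-1.07 to -0.79). It was lower in all 3 clusters, with ratios of -0.94 (-1.14 to -0.73) in the Cpm-led, -1.24 (-1.48 to -0.99) in the Chad-led and -0.57 (-0.86 to -0.28) in the Ppa1-led cluster. Within male cells, 52 with vehicle and 227 with teriparatide, the COP-like level was 359 and 169 CPM, a log2 ratio of -1.09 (-1.24 to -0.94). Within female cells, 11 and 25, it was 270.3 and 269.8 CPM, a ratio of -0.0030 (-0.39 to 0.40). The intervals of the sexes did not overlap. The ratio was -1.83 (-2.13 to -1.53) in male and 0.45 (-0.044 to 0.97) in female cells of the Chad-led cluster, -0.67 and -0.15 in the Ppa1-led cluster, and -0.90 and -2.13 in the Cpm-led cluster. The last female value rested on 1 cell in each library, whereas 24 of the 52 male vehicle cells and 97 of the 227 male teriparatide cells were Cpm-led, so the sexes also differed in their mix of clusters.

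**Figure D4:**
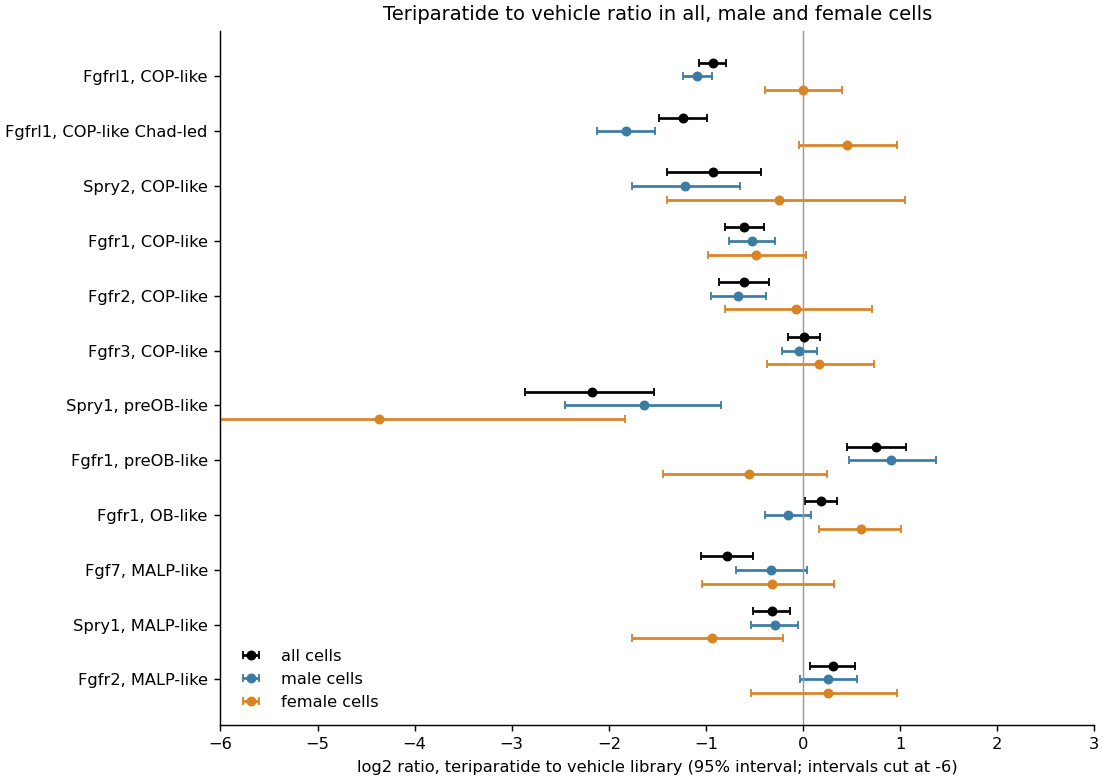
Log2 ratio of the teriparatide to the vehicle library in all, male and female cells for 12 pairs of a member and a class or cluster, with whiskers for the exact 95% interval of counting error, drawn no lower than -6. Fgfrl1 in COP-like cells lies at -1.09 in male and at about 0 in female cells, and Fgfr1 in preOB-like cells lies at 0.91 in male and -0.56 in female cells, the latter from 66 and 16 UMIs.

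Fgfr2 was also lower in COP-like cells of the teriparatide library, -0.61 (-0.87 to -0.35), with -0.67 (-0.95 to -0.38) within male and -0.074 (-0.81 to 0.71) within female cells. Among the clusters the ratio was -0.72 (-1.11 to -0.32) in the Cpm-led and -0.91 (-1.48 to -0.30) in the Ppa1-led cluster. In the Chad-led cluster it was -0.38 (-0.81 to 0.060), within 1.5-fold and with an interval that included 0, and there it was -0.42 within male and 0.60 within female cells. Its MALP-like ratio of 0.30 (0.075 to 0.53) pointed the other way, and at an equal depth of 3000 UMIs per cell it was -0.22. The ratio of Fgfr3 in COP-like cells as a whole was 0.0050 (-0.16 to 0.17), but 2 of the clusters had opposite directions. It was higher in the teriparatide library in the Chad-led cluster, with a ratio of 0.73 (0.31 to 1.17), and lower in the Ppa1-led cluster, with a ratio of -0.31 (-0.55 to -0.077). The Chad-led cluster accordingly went from 18.2% (13.9 to 23.2) to 38.2% (35.2 to 41.3) of Fgfr3 among its kinase receptor UMIs, while Fgfr1 went from 61.1% to 41.7%. Within the male cells of the Chad-led cluster the ratio was 0.69 (0.21 to 1.21) for Fgfr3 and -0.98 (-1.29 to -0.66) for Fgfr1. Within its female cells, 6 with vehicle and 13 with teriparatide, it was 0.44 (-0.63 to 1.64) for Fgfr3 and 0.0046 (-0.57 to 0.61) for Fgfr1. In MALP-like cells Fgfr3 was lower, -0.73 (-1.36 to -0.14), at -0.93 within male and 1.13 within female cells, the latter from 36 and 8 UMIs.

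COP-like cells of the 2 libraries also differed in other markers. Hypertrophic markers summed to 104 CPM with vehicle and 429 CPM with teriparatide in COP-like cells, with Col10a1 at 1.66 and 215 CPM, and the osteoblast markers summed to 487 and 2065 CPM. The 4 cycling markers summed to 76.8 and 133 CPM, and the neutrophil markers to 11.6 and 130.3 CPM. Neutrophil markers were higher in the teriparatide library in the other classes too, at 90.3 and 211 CPM in preOB-like, 11.9 and 173 CPM in OB-like, 9.82 and 273 CPM in osteocyte-like and 67.8 and 209 CPM in MALP-like cells. The part of these markers in the ratios of the members was not tested.

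Fgf7 in MALP-like cells was lower in the teriparatide library, -0.78 (-1.05 to -0.52) on the log2 scale, and its level differed between the sexes. In the vehicle library female MALP-like cells had 326 CPM of Fgf7 and male cells 172 CPM. The teriparatide library had 261 and 137 CPM, from 7 female and 62 male cells. Within male cells the ratio was -0.33 (-0.69 to 0.037) and within female cells -0.32 (-1.04 to 0.32), neither past 1.5-fold and both with intervals that included 0. Spry1 in the same cells was at 380.4 CPM in male and 379.6 CPM in female cells of the vehicle library, and its ratio of -0.32 (-0.52 to -0.13) was -0.29 within male and -0.93 within female cells.

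Spry1 in preOB-like cells had the ratio farthest from 0 of the members counted, -2.17 (-2.87 to -1.53). It was lower within male cells, 124 and 39.98 CPM with a ratio of -1.64 (-2.46 to -0.85), and within female cells, where 58 and 1 UMIs were counted. Without the cells that held a pericyte or smooth muscle marker it was at 117 CPM with vehicle and 31.1 CPM with teriparatide. Spry1 was highest in MALP-like cells, and the MALP markers in the preOB-like class were lower as well, as given above. Their part in the Spry1 ratio was not tested. With cells assigned by their own markers, the ratio was -0.40. Spry2 was lower in the teriparatide library in all 5 classes, with log2 ratios of -0.92 (-1.40 to -0.43) in COP-like, -1.72 (-3.53 to -0.18) in preOB-like, -1.33 (-2.25 to -0.46) in OB-like, -1.47 (-2.65 to -0.29) in osteocyte-like and -0.48 (-1.14 to 0.15) in MALP-like cells. The preOB-like and osteocyte-like values rested on fewer than 50 UMIs, and the MALP-like value was within 1.5-fold, with an interval that included 0. In COP-like cells the Spry2 ratio was -1.21 (-1.76 to -0.65) within male and -0.24 (-1.40 to 1.05) within female cells. It was 0.86 (-0.60 to 2.63) in female cells of the Chad-led cluster and 0.11 (-2.50 to 3.50) in female osteocyte-like cells. The few hypertrophic-like cells gave 0.65 (-2.14 to 6.07), from 1 and 11 UMIs.

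The other genes of the pathway were taken from a list of 74, of which 42 had at least 50 UMIs in COP-like, 31 in preOB-like, 37 in OB-like, 13 in osteocyte-like and 36 in MALP-like cells. Past 1.5-fold, 4 were higher and 6 lower in COP-like cells, where 8.17% and 16.9% of all genes were. The counts were 5 and 8 in preOB-like (background 8.43% and 18.4%), 10 and 5 in OB-like (background 6.6% and 13.9%), 2 and 2 in osteocyte-like (background 19.4% and 13.2%) and 4 and 5 in MALP-like cells (background 8.24% and 10.1%). The median log2 ratio was -0.16 in COP-like, 0.043 in preOB-like, 0.18 in OB-like, 0.083 in osteocyte-like and -0.15 in MALP-like cells, against -0.20, -0.14, -0.15, 0.053 and -0.080 over all genes.

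Among the other 18 ligands, Fgf1, a ligand of every FGF receptor, was an osteocyte-like gene at 187 and 209 CPM. In COP-like cells it was at 1.66 and 7.58 CPM (3 and 60 UMIs). Fgf13, an intracellular family member, was highest in MALP-like cells at 16.5 and 29.7 CPM. The remaining receptor Fgfr4 was seen in COP-like cells at 5.52 and 3.79 CPM, and the co-receptors Kl and Klb had at most 1 UMI in a class and library. Of the heparan sulfate carriers, Sdc4 was highest in COP-like cells (1453 and 972 CPM) and Sdc2 in preOB-like cells (607 and 542 CPM). Sdc1 was lower in COP-like cells of the teriparatide library (45.8 and 18.8 CPM), Sdc3 was higher in MALP-like (49.5 and 125 CPM) and osteocyte-like cells (147 and 287 CPM), and Sdc4 was lower in osteocyte-like cells (678 and 259 CPM). The log2 ratios were -1.28 (-1.68 to -0.88), 1.34 (0.93 to 1.75), 0.96 (0.16 to 1.87) and -1.39 (-1.88 to -0.89) in that order, the last at -0.57 within male cells.

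Of the transduction genes, from Frs2 to the ERK kinases, 1 of 18 was higher and 3 were lower in COP-like cells, with a median of -0.21 against -0.20 over all genes (background 8.17% higher and 16.9% lower). In preOB-like cells 1 of 15 was higher (Braf) and 6 were lower (among them the ERK pathway kinases Map2k1, Map2k2 and Mapk3), with a median of -0.47 against -0.14 and a background of 8.43% higher and 18.4% lower. In OB-like cells 1 of 16 was higher and 3 were lower (background 6.6% and 13.9%), with a median of -0.16 against -0.15. In MALP-like cells 1 of 17 was higher and 2 were lower (background 8.24% and 10.1%), with a median of -0.31 against -0.080.

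Of the feedback and target genes, 1 of 8 was higher and none lower in COP-like cells (background 8.17% and 16.9%), 1 and 1 of 3 in preOB-like (8.43% and 18.4%), 2 and 1 of 6 in OB-like (6.6% and 13.9%), 1 and 1 of 3 in osteocyte-like (19.4% and 13.2%) and 1 and 2 of 6 in MALP-like cells (8.24% and 10.1%). Egr1, an immediate early target of ERK, was highest in COP-like cells at 1947 and 1993 CPM, and Spred1, an inhibitor of Ras, in osteocyte-like cells at 344 and 224 CPM. Egr1 in osteocyte-like cells was at 128 and 280.4 CPM, a ratio of 1.13 (0.28 to 2.11) that was 0.033 within male cells. It was lower in the teriparatide library in preOB-like cells (291 and 156 CPM) and OB-like cells (397 and 125 CPM). Spry4, the Sprouty not among the members, was lower in MALP-like cells of the teriparatide library (31.8 and 10.5 CPM), with a log2 ratio of -1.60 (-2.64 to -0.67), as was Dusp6, a phosphatase of ERK (24.4 and 12.2 CPM). Dusp5, another such phosphatase, was higher in the same cells (16.5 and 35.0 CPM). The cell cycle gene Ccnd1 was higher in preOB-like (31.0 and 70.9 CPM) and OB-like cells (10.999 and 39.0 CPM), in the latter with a log2 ratio of 0.61 within male cells.

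Genes that process or regulate Fgf23 were present although Fgf23 was not detected in osteocyte-like cells. Dmp1, a matrix protein whose loss raises Fgf23, was highest in osteocyte-like cells at 13576 and 15327 CPM. It is also a marker by which that class was named, so its rank there was set by the naming. Ankh (Ank in the count matrices), a pyrophosphate transporter, was highest in osteocyte-like cells too, at 2239.7 and 2321 CPM. In OB-like cells 4 of 7 were higher in the teriparatide library (Dmp1, Fam20c, Enpp1 and Ankh) and none was lower, with a median of 0.67, against a background of 6.6% higher and 13.9% lower and a median of -0.15 over all genes. Dmp1 was at 179.5 and 794 CPM and Enpp1, which generates pyrophosphate, at 3.52 and 38.6 CPM, with log2 ratios of 2.15 (1.99 to 2.30) and 3.45 (2.42 to 4.70). Both were smaller within male cells, 0.94 and 1.12. In preOB-like cells Dmp1 (46.6 and 262 CPM) and Enpp1 (39.5 and 108 CPM) were higher as well. Galnt3, the enzyme that protects Fgf23 from cleavage, was lower in COP-like cells (13.8 and 4.55 CPM), and Phex, the endopeptidase mutated in X-linked hypophosphatemia, was lower in MALP-like cells (34.2 and 6.997 CPM). Their log2 ratios were -1.60 (-2.38 to -0.80) and -2.29 (-3.57 to -1.21).

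Genes with a pattern like that of a member were sought among 9453 genes over 22 points, the log levels of 11 classes in each library, which share libraries and depth. For Fgfr1 these were Mdfi (r = 0.98), Pth1r (r = 0.98) and Unc5b (r = 0.97), the second being the receptor of teriparatide. The points include hematopoietic-like classes, with Fgfr1 at 5.65 and 2.03 CPM in erythroid-like cells. Genes low in such classes can therefore correlate highly without a close likeness among the mesenchymal classes. The genes most like Fgfr2 were Chst2 (r = 0.98), Naaladl2 (r = 0.97) and Cdc42ep5 (r = 0.97), and for Fgfr3 they were Nrep (r = 0.97), Ndn (r = 0.96) and Enpp2 (r = 0.96). The likeness was Gpc6 (r = 0.93), Eid1 (r = 0.92) and Ndrg2 (r = 0.92) for Fgfrl1, and Msc (r = 0.99), Csmd1 (r = 0.98) and Pdzrn4 (r = 0.98) for Fgf7. Spry1 was most like Kitl (r = 0.93), Dync1h1 (r = 0.93) and Phf11d (r = 0.92), while Spry2 had the lowest values, Dnajb9 (r = 0.86), Ppp2r3d (r = 0.86) and Pex5 (r = 0.84). Fgf2, Fgf18 and Fgf23 had too few UMIs for this search.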

How the data were processed

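Single-cell RNA was measured in 2 libraries, 1 of vehicle-treated and 1 of teriparatide-treated mice. The authors describe counting UMIs per gene and barcode with Cell Ranger 2.1.0 against mm10. The deposited matrices hold raw counts, but their headers name software version 3.1.0. Which version made these counts is not known here. The study later brought libraries to equal depth, whereas the matrices used here differ in depth. Cells with 200 to 6000 genes and at most 10% mitochondrial UMIs were kept, as in the study. The libraries were aligned by canonical correlation (Seurat 5.3.0, R 4.3.3) on 2000 variable genes, without the markers, members, pathway genes and sex-linked genes. They were clustered on 20 components at resolution 0.6. Hematopoietic clusters and cells with a Ptprc UMI were then set aside, and the other cells were clustered again in the same way. A marker was held when seen in at least 10% of a cluster's cells and above the mean of the other clusters, and a name needed 3 held markers. Scrublet (scanpy 1.11.5) marked 1 cell, or 0.182% of the vehicle and none of the teriparatide cells, so doublets may remain. By single-cell markers, 124 of 1766 cells lay within 1 log2 unit of another class. Of cells so assigned, 65.3% and 52.2% of OB-like and 69.1% and 79.2% of MALP-like cells were in the cluster class of that name. The shares were 92.8% and 98.5% for COP-like and 100% and 96.8% for osteocyte-like cells. All 8 and 11 cells assigned as preOB-like were in that cluster class, which held 61 and 54 cells.

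UMIs were summed per class and library in Python 3.11.15 (numpy 2.4.6, scipy 1.17.1, pandas 2.3.3). Levels have exact Poisson, shares Clopper-Pearson and ratios conditional binomial intervals, which cover counting error only. Cells with Xist and no Y-linked transcript (Uty, Kdm5d, Ddx3y, Eif2s3y) were called female, and cells with such a transcript and no Xist male. The ratio script was tested on simulated data. The 10 members and the lists were chosen with earlier results of these data known. Beyond the members, the text names the 3 pathway genes of each class with the largest ratio, the 2 highest of each list group and the 3 genes most like a member, and other genes where a count or a marker list calls for them. Some genes that this rule names are not reported here. Alternatives were fixed beforehand except the removal of cells with pericyte markers, which was chosen after seeing the data. No column of sample values was left unused.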

Additional observations from a re-analysis of the deposited data

Results flagged for a closer look

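Taken over all cells of a class or cluster, some members differed between the libraries in opposite directions in different cells of the same samples. These differences were not tested, since there was 1 library per condition. For Fgfr1, the log2 ratio of teriparatide to vehicle in COP-like cells lay 1.36 below that in preOB-like cells, 1.94 below that in osteocyte-like cells, 1.23 below that in MALP-like cells and 0.79 below that in OB-like cells. For Fgfr2, the ratio in MALP-like cells exceeded that in COP-like cells by 0.92. For Fgfr3, the ratio in the Chad-led COP-like cluster exceeded that in the Ppa1-led cluster by 1.04. Not all of these directions held when recomputed. Within male cells the Fgfr1 ratio was -0.16 in OB-like cells, negative as in COP-like cells (-0.53). In preOB-like cells it was -0.56 within female cells, and also negative with cells assigned by their own markers. In osteocyte-like and MALP-like cells it stayed positive within each sex, with wide intervals. The Fgfr2 ratio in MALP-like cells was negative at equal depth. The libraries also differed in the share of male cells, which was 82.5% and 90.1% of the called COP-like cells, 54.2% and 86.0% of the preOB-like, 34.1% and 94.0% of the OB-like and 43.6% and 89.9% of the MALP-like cells.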

How the results depend on the processing

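No paired analysis was possible because each condition had 1 library, and for the same reason no replicate could be left out. All values here are log2 ratios unless given as counts. The leading class of a member was picked as the highest in these same cells, which largely fixed the sign of its excess beforehand. Within 1 library and sex the sign could differ, as for Fgfr1 in female preOB-like teriparatide cells (-0.19, -1.03 to 0.54). Taken over both libraries, the excess of a member in its leading class over the other mesenchymal cells kept its direction in all 87 recomputations. It moved by more than its counting interval in 33. Thinned to 3000 UMIs per cell it was 0.98 for Fgfr1 in preOB-like cells, 1.30 for Fgfr2, 5.12 for Fgf7 and 3.39 for Spry1 in MALP-like cells, and 1.88 for Fgfr3, 2.21 for Fgfrl1 and 1.06 for Fgf2 in COP-like cells. In female cells alone it was, in the same order, 0.087, 1.43, 6.33, 3.47, 1.79, 2.80 and 0.44. As a mean over single cells it was 1.504 for Fgfr2, 1.91 for Fgfr3, 2.26 for Fgfrl1, 4.81 for Fgf7 and 3.34 for Spry1. With totals without mitochondrial and abundant genes it was 1.43 for Fgfr2, 1.90 for Fgfr3, 2.27 for Fgfrl1 and 4.16 for Spry1, and with up to 20% mitochondrial UMIs 1.51 for Fgfr2 and 1.77 for Fgfr3. With cells assigned by their own markers it was 0.82 for Fgfr1, 6.66 for Fgf7 and 5.13 for Spry1. Without the cell with most UMIs it was 6.30 for Fgf7 and 4.64 for Spry1, and for Spry1 it was 4.66 at a resolution of 1.0 and 4.92 in male cells. Without cells with a pericyte marker, chosen after seeing the data, it was 0.87 for Fgfr1.

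The teriparatide to vehicle ratio of a member in its leading class stayed within its counting interval in 86 of 99 recomputations. Among these, Fgfr3 in COP-like cells changed sign within the interval, from 0.0050 to -0.038 in male cells. Beyond the interval, 9 moved without a change of sign and 4 reversed. The ratio reversed for Fgfr1 in preOB-like cells in female cells (-0.56) and with cells assigned by their own markers (-0.31), for Fgfr2 in MALP-like cells at 3000 UMIs (-0.22) and for Spry2 in osteocyte-like cells in female cells (0.11). It moved to 0.21 for Fgfr1 with up to 20% mitochondrial UMIs, to 0.21 for Fgfr3 and -0.73 for Fgfrl1 in COP-like cells when scaled by the median gene, to -1.09 for Fgfrl1 and -0.33 for Fgf7 in male cells, and to -0.0030 for Fgfrl1, -0.32 for Fgf7, -2.66 for Fgf18 and -0.93 for Spry1 in female cells. Of 460 further ratios of named genes, 7 reversed beyond their counting interval. These were Fgfr1 in OB-like cells at 3000 UMIs (-0.099), in male cells (-0.16) and as a mean over cells (-0.034), Fgfr3 in MALP-like female cells (1.13), Fgfrl1 in preOB-like cells with up to 20% mitochondrial UMIs (0.076) and by single-cell markers (0.60), and Dmp1 in osteocyte-like cells as a mean over cells (-0.014). Within a sex or by single-cell markers fewer cells were counted, and beyond this the cause was not tested.

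Counts of genes past 1.5-fold moved with the fewest UMIs required. At 20 UMIs they were 1187 higher in COP-like, 859 higher and 1551 lower in preOB-like, 873 and 1375 in OB-like, 482 and 437 in osteocyte-like and 1048 and 1132 in MALP-like cells. At 200 UMIs they were 282 and 718, 101 and 188, 138 and 288, 44 and 24, and 189 and 205 in the 5 classes in that order. Scaled by the median gene they were 1197 and 670 in COP-like, 559 and 541 in preOB-like and 645 and 485 in OB-like cells. Depth limits Fgf18, Fgf23 and Fgf2 most.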

Other observations

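The Sprouty genes were also counted outside the mesenchymal classes. Spry1 was at 40.04 CPM in the vehicle and 4.55 CPM in the teriparatide monocyte-like cells, from 11 UMIs in each library. Spry2 was at 27.4 and 6.15 CPM in neutrophil-like cells and at 7.28 and 19.9 CPM in monocyte-like cells. In MALP-like cells of the vehicle library, Fgf7 was higher in the 66 female cells (326 CPM) than in the 51 male cells (172 CPM), and in the teriparatide library it was 261 CPM in 7 female and 137 CPM in 62 male cells. How many mice of each sex these cells came from is not known here.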
